A study of Mus musculus with 12 samples.

Results

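The baseline of the Ocy454 line was read from 3 of the 12 RNA sequencing libraries of a study of parathyroid hormone (PTH) signalling: wild-type cells given vehicle, chosen by their labels. Ocy454 is an immortalised mouse cell line with features of osteocytes, the cells that lie in mineralised bone and respond to load and hormones. The study also held 3 libraries of wild-type cells given PTH, 3 of wild-type cells given PF431396, an inhibitor of the focal adhesion kinases FAK and PYK2, and 3 of PDE8A KO cells, which carry a knockout of the cyclic AMP phosphodiesterase gene Pde8a. The values' column names give DMSO as the vehicle of the wild-type libraries, and also name it for the KO libraries. The sources used here do not give doses, treatment times, the number of clones behind the KO or the days in culture. They also do not say whether the libraries of a group came from separate cultures, so the p-values cover only the spread from library to library, and this may be technical. The table used for the baseline held 11775 named genes over its 6 libraries. No listed gene had fewer than 11 estimated counts in any of the 6, so a gene that is not listed is not shown to be absent from these cells.

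Osteoblasts build bone by secreting type I collagen and acidic phosphoproteins and by raising phosphate at the sites where mineral forms. Some of them become embedded as osteocytes, which keep the PTH receptor, switch on Dmp1, Phex and later Sost and Fgf23, and pass signals through dendrites and gap junctions. PTH acts through a Gs-coupled receptor that raises cyclic AMP, and phosphodiesterases end that signal.

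Vehicle library 1 stood apart from vehicle libraries 2 and 3. Levels are given for each library, with and without library 1, or only as the mean and SD of the 3 libraries. Where the SD is wide, such a mean may describe none of the 3 libraries. The 3 libraries held 27751256, 31252194 and 27928744 estimated counts in the listed genes, so library 1 was as deep as library 3. Over all genes the SD of the log2 ratio was 0.73 for library 1 over library 2 and 0.74 for library 1 over library 3, against 0.27 for library 2 over library 3, with medians of 0.01, 0.01 and -0.00. The 13 mitochondrial genes took 3.87% of the counts in library 1, against 5.17% and 4.64% in libraries 2 and 3, and the 95 ribosomal protein genes took 5.11%, against 6.70% and 6.39%. The sources used here give no batch, culture date or RNA quality value for each library, and the part of these was not tested.

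Levels of different genes were compared as normalised estimated counts per kilobase of the principal transcript, called the level per kb here. This was possible for 11581 genes. Their median was 363 per kb, 2455 genes had at least 1000 per kb and 187 had less than 10. The highest was mt-Co1, a mitochondrially encoded subunit of cytochrome c oxidase, at 298249 per kb. Of the 30 highest nuclear protein-coding genes, which spanned 32920.2 to 118652 per kb, 22 encode ribosomal proteins. Ribosomal protein genes have many near-identical copies, and Rpl10-ps3 among the 30 is named as such a copy, so reads may be shared between them.

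The 30 were led by Ftl1, the light chain of the iron store ferritin, at 118652 ± 7337 per kb (mean ± SD, n = 3), and Eef1a1, the translation elongation factor that delivers tRNAs, at 117312 ± 33340.4 per kb. Gapdh, a glycolytic enzyme, followed at 75067 ± 32887 per kb, with a wide SD because it was 37139.6 in vehicle library 1, against 95674 and 92387 in libraries 2 and 3. The other genes of the 30 that encode no ribosomal protein were B2m, the light chain of MHC class I molecules, at 49759.8 per kb, Ptma at 42462, Tpt1 at 40785, Rack1 at 40585 and the translation factor Eif4g2 at 43383 per kb. The place of Eif4g2 rests on a principal transcript of 742 bases: with the exons of all its transcripts merged its level was 3166 per kb. In contrast to Gapdh, B2m had 48311 in vehicle library 1, against 52524 and 48444 in libraries 2 and 3 per kb, and the 3 libraries lay close together.

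Ibsp, Alpl and Pth1r, 3 of the 5 markers used to check the line's identity, were among the higher genes, and Phex and Dmp1 were listed at low levels. Ibsp (chr5:104299171-104311469, plus strand, GRCm38) encodes bone sialoprotein, a matrix protein that binds calcium and starts mineral formation. Its level was 3014 in vehicle library 1, against 13395 and 14786 in libraries 2 and 3 per kb, for a mean rank of 181 of 11581, and rank 145 in libraries 2 and 3 alone. Alpl (chr4:137741733-137796384, minus strand) encodes tissue-nonspecific alkaline phosphatase, which removes the mineral inhibitor pyrophosphate. It had 1782 in vehicle library 1, against 6673 and 7941 in libraries 2 and 3 per kb, with rank 315 over the 3 libraries and 246 without library 1.

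Pth1r (chr9:110722085-110747145, minus strand), the receptor for PTH and PTH-related peptide, had 513 in vehicle library 1, against 4240.0 and 4733 in libraries 2 and 3 per kb. It ranked 4615 in library 1, against 396 by the mean of libraries 2 and 3. Phex (chrX:157162075-157415312, minus strand), an osteocyte endopeptidase that restrains Fgf23, had 69.2 in vehicle library 1, against 183 and 198 in libraries 2 and 3 per kb. Dmp1 (chr5:104202613-104214102, plus strand), the acidic matrix protein of early osteocytes, had 42.5 in vehicle library 1, against 143 and 181 in libraries 2 and 3 per kb. Both lay below the median gene in each library. The 5 markers were thus all listed, and for all 5 library 1 was below both other libraries. The later osteocyte genes Sost, Fgf23, Mepe, Dkk1 and Tnfsf11 were not among the genes listed in the table, and 15 of the 23 osteocyte genes looked up were.

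**Figure D1:**
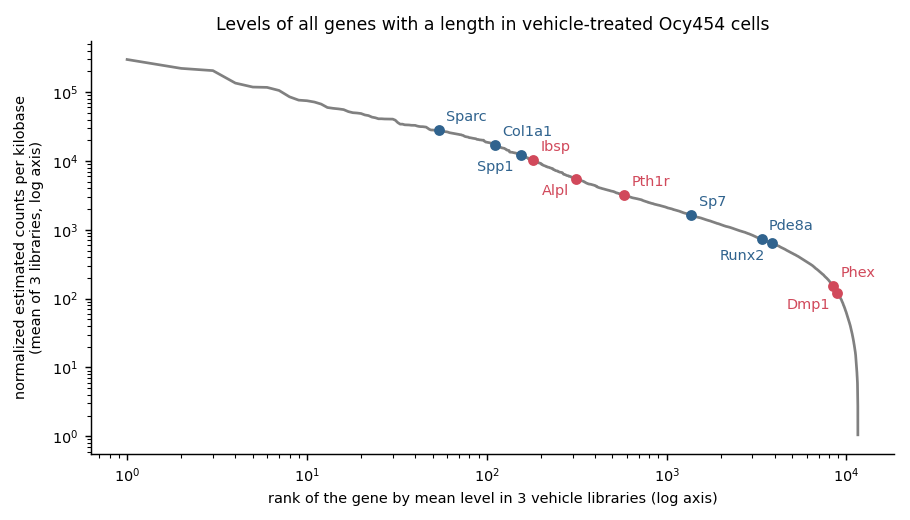
Level per kb of every gene with a length against its rank, both on log axes, as the mean of the 3 vehicle libraries. Red points are the 5 markers and blue points 6 other bone or signalling genes; Ibsp, Alpl and Pth1r lie in the upper part of the curve, and Phex and Dmp1 on its falling end, at ranks 8462 and 8907.

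Among matrix genes, 115 of the 141 looked up were listed, and the proteins of unmineralised bone matrix stood at the top. Sparc, which encodes the collagen-binding protein osteonectin, had 27854 ± 15995 per kb and rank 54. The type I collagen chains Col1a2 and Col1a1 had 26504 ± 15899 and 16935 ± 9762 per kb. All 3 were lower in library 1: Col1a1 had 5905 in vehicle library 1, against 20439 and 24462 in libraries 2 and 3 per kb. Fn1, the cell-adhesive protein fibronectin, had 15737 ± 875 per kb, and its values of 14774 in vehicle library 1, against 15952 and 16484 in libraries 2 and 3 differed little, so that in library 1 it took the first place among the bone matrix proteins outside the phosphoprotein family.

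Of the 5 mineral-binding phosphoproteins of the SIBLING family, 3 were listed: Spp1 (osteopontin) at 12217 ± 4415 per kb, Ibsp and Dmp1. Mepe and Dspp were not. Spp1 and Ibsp changed places between libraries 2 and 3, so their order was not settled by these values. Postn, which encodes the matricellular protein periostin, had 3108 ± 1186 per kb. Of 26 collagen chain genes 20 were listed. After type I came Col5a2 at 6871 ± 2746, Col6a1 at 2559 ± 836 and Col6a3 at 1749 ± 921 per kb. The cartilage collagen Col2a1 and the basement membrane chains Col4a1 and Col4a2 were not listed.

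Genes of collagen folding and maturation were nearly all listed, 22 of 23. Serpinh1, the collagen chaperone HSP47, had 15534 ± 1893 per kb, Ppib, a prolyl isomerase that acts on collagen, 8104 ± 1152, and Pcolce, an enhancer of procollagen cleavage, 4159 ± 1811 per kb. Bgn and Fmod, small proteoglycans that bind collagen fibrils, had 12225 ± 4051 and 5804 ± 2867 per kb, while Lum was not listed. In the mineral handling list, Phospho1, the phosphatase that releases phosphate inside matrix vesicles, had 3725 ± 2432 per kb, and Smpd3, a sphingomyelinase needed for mineralisation, 1048 ± 775 per kb. Phospho1 ranked 2666 in library 1 and 330 by the mean of libraries 2 and 3, and Smpd3 8010 and 1522. Panx3, a channel of mineralising osteoblasts, had 255 in vehicle library 1, against 2966 and 3581 in libraries 2 and 3 per kb, the widest relative gap of the 3. The membrane collagenase Mmp14 led the proteases at 4217 ± 544 per kb, followed by the inhibitor Timp2 at 3767 ± 688 per kb, and Mmp9 was not listed.

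**Figure D2:**
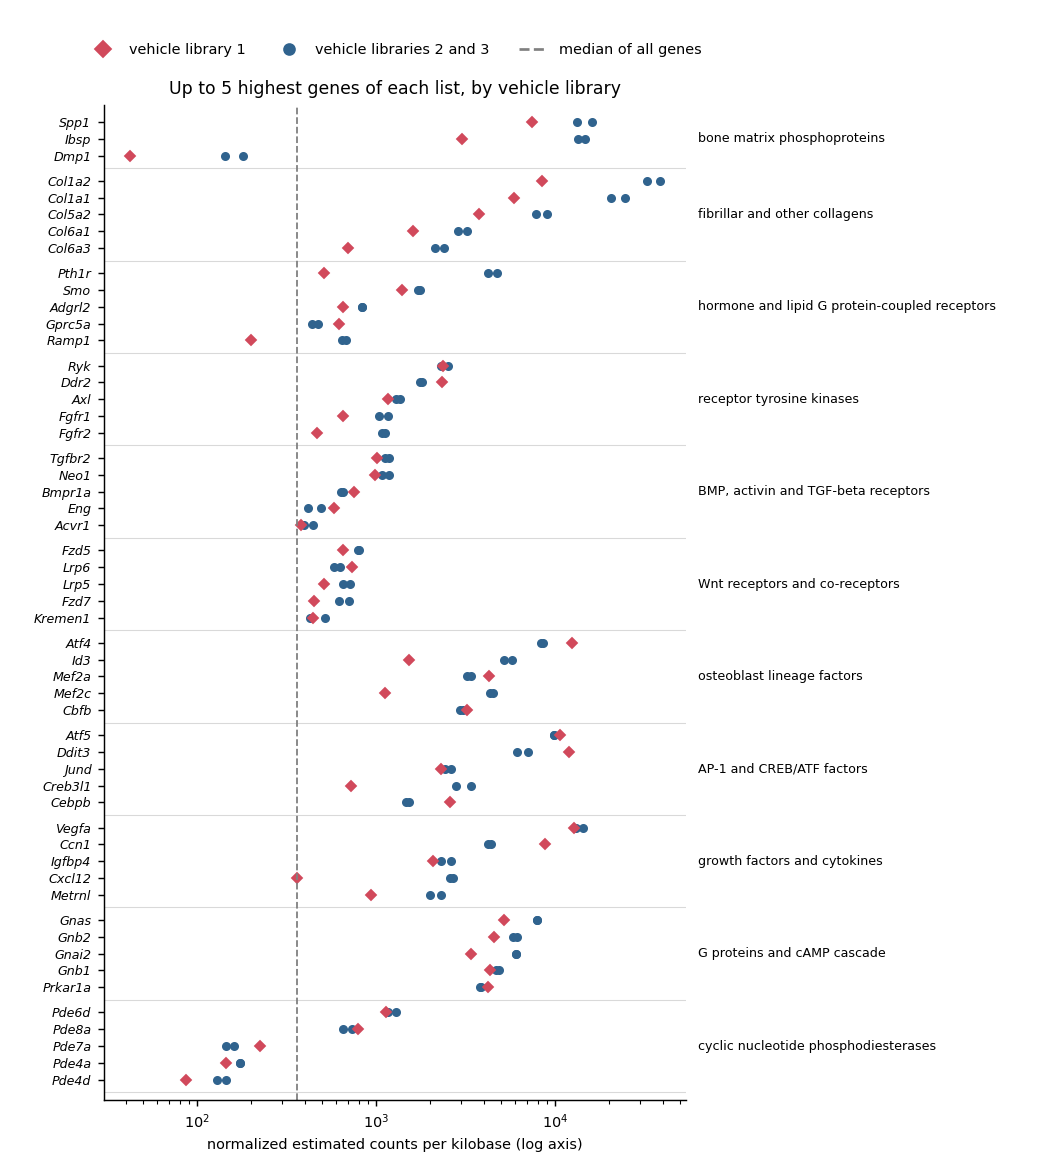
Level per kb (log axis) of up to 5 highest genes in 11 gene lists, with vehicle library 1 as red diamonds and libraries 2 and 3 as blue circles; the dashed line is the median of all genes. Pth1r, the collagens, Ibsp, Mef2c, Creb3l1 and Cxcl12 show library 1 well to the left, while Vegfa, Ryk, Tgfbr2 and Pde8a show the libraries close together.

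Of 308 receptor and channel genes looked up, 211 were listed. The G protein-coupled receptors were the sparsest group, with 37 of 79 listed and a median of 129 per kb against 363 over all genes. Pth1r was the highest of them, at 3162 ± 2307 per kb, followed by Smo, the Hedgehog signal transducer, at 1618, and the adhesion receptor Adgrl2 at 773 ± 103 per kb. This order held in libraries 2 and 3. In library 1 Smo was higher, at 1389 per kb, than Pth1r, at 513 per kb. Ramp1, a partner of calcitonin family receptors, had 508 ± 267 per kb, but Calcr and Calcrl were not listed. Neither were Ptger2 and Ptger3, which encode receptors for prostaglandin E2.

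Receptor tyrosine kinases were listed for 29 of 47 genes. Ryk, which binds Wnt ligands, had 2394 ± 103 per kb, Ddr2, which binds fibrillar collagen, 1971 ± 326, and Axl, the Gas6 receptor, 1273 ± 96.6 per kb. Fgfr1 and Fgfr2 had 955 ± 265 and 890.3 ± 365 per kb, which overlapped over the 3 libraries. The blood, macrophage and endothelial kinases Kit, Csf1r and Kdr were not listed. In the BMP and TGF-beta receptor list Tgfbr2 had 1104 ± 85 and Neo1 1084 ± 100 per kb, a difference within their SDs, and Bmpr1a had 680.4 ± 63.6 per kb, while Bmpr1b was not listed.

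The 15 listed Wnt receptors had a median of 238 per kb. They were led by Fzd5 at 754 ± 84.6, the co-receptors Lrp6 at 647 ± 75.5 and Lrp5 at 626 ± 103, and Fzd7 at 592 ± 131 per kb. The order of these 4 changed between libraries, with Lrp6 highest in library 1 and Fzd5 in libraries 2 and 3. Lrp4, the co-receptor that holds sclerostin, had 1487 in library 1, against 4108 and 4632 in libraries 2 and 3 normalised estimated counts. It was the 1 Wnt receptor of 15 at least 2-fold below both other libraries in library 1, and 9 of the 15 were below both by any amount. Cdon, a Hedgehog co-receptor, and Notch2 led the Notch and Hedgehog receptors at 605 ± 84.8 and 512 ± 129.5 per kb.

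Cytokine receptors were listed for 34 of 38 genes. Tnfrsf12a, the receptor for the cytokine TWEAK, was the highest at 7464 ± 4405 per kb and, unlike Pth1r, was higher in library 1, with 12549.9 in vehicle library 1, against 4950.4 and 4890.5 in libraries 2 and 3 per kb. Ltbr and Tnfrsf1a, receptors for lymphotoxin and TNF, had 2399.9 ± 445 and 2088 ± 86.9 per kb. Tnfrsf11a, which encodes the osteoclast receptor RANK, was not listed. Tnfrsf11b, which encodes osteoprotegerin, the decoy for the RANK ligand, was listed with 179 in library 1, against 924 and 992 in libraries 2 and 3 normalised estimated counts. Nuclear receptors were listed for 25 of 38 genes, with the retinoic acid receptor Rarg at 1322 ± 351 and the oxysterol receptor Nr1h2 at 1152 ± 104 per kb. Pparg and Esr2 were not listed.

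Adhesion receptors were led by Itgb1, the shared beta subunit of the collagen and fibronectin integrins, at 11782 ± 394 per kb, far above Itgb5 at 3399 ± 243 and the syndecan Sdc3 at 3224 ± 1778 per kb. The Itgb1 values of 11328 in vehicle library 1, against 12002 and 12017 in libraries 2 and 3 per kb were close together, whereas Sdc3 had 1186 in vehicle library 1, against 4029 and 4457 in libraries 2 and 3. Of the mechanosensitive and calcium channels 23 of 28 were listed. After Panx3 came Piezo1, a channel opened by membrane stretch, at 1383 ± 318 per kb, and Gja1, the osteocyte gap junction protein connexin 43, had 951 ± 448 per kb. In library 1 Piezo1 was above Panx3, at 1747 against 255 per kb.

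Of 193 transcription factor genes looked up 153 were listed, and the highest were beta-catenin and 3 stress-responsive factors. Atf5, Atf4 and Ddit3, bZIP factors of the amino-acid and unfolded protein responses, had 10115 ± 451, 9787 ± 2264 and 8397 ± 3127 per kb. Ctnnb1, which encodes beta-catenin, the transcriptional partner of Wnt signalling and a junction protein, had 10423 ± 4488 per kb. In the osteoblast lineage list, Id3 had 4144 ± 2278, Mef2a 3628 ± 555 and Mef2c, a regulator of Sost in osteocytes, 3312 ± 1896 per kb. Id3 and Mef2c ranked 1533 and 2233 in library 1, against 314 and 405 by the mean of libraries 2 and 3. Mef2a ranked 404 in library 1 and 559 by that mean.

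Sp7 (osterix) and Runx2, which drive osteoblast commitment, had 1622 ± 1174 and 632 ± 302 per kb, at ranks 1373 and 3880. In the 3 libraries Sp7 was 280.1 in vehicle library 1, against 2122 and 2463 in libraries 2 and 3 per kb, and Runx2 was 297 in vehicle library 1, against 718 and 882 in libraries 2 and 3 per kb. Library 1 was lowest for both. Runx2 and Sp7 were chosen for naming after their values were seen. Of the 39 Hox genes, the homeodomain factors of body position, 27 were listed: 11 of 11 Hoxa, 8 of 10 Hoxb, 8 of 9 Hoxc and 0 of 9 Hoxd genes. Hoxb9 had 715 ± 339.9, Hoxa7 629.7 ± 175 and Hoxa10 460.4 ± 67 per kb, with Hoxb9 highest in library 1, Hoxa7 in library 2 and Hoxa10 in library 3. Among limb and skeletal patterning factors Eya1 and Tbx15 had 692 ± 219.8 and 579 ± 71.8 per kb, and Tbx4, Tbx5 and Hand2 were not listed.

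Of 274 genes for ligands and signal relays 190 were listed. Vegfa, the angiogenic growth factor, was the highest ligand at 13365 ± 787 per kb, and its values of 12813 in vehicle library 1, against 13015 and 14266 in libraries 2 and 3 differed little. The YAP-regulated matricellular gene Ccn1 had 5811 ± 2625, the IGF-binding protein gene Igfbp4 2331 ± 271 and the chemokine gene Cxcl12 1879 ± 1314 per kb. Cxcl12 had 362 in vehicle library 1, against 2599 and 2676 in libraries 2 and 3 per kb, so its mean describes none of the 3 libraries. Csf1, which drives osteoclast precursors, had 1288 ± 395 per kb, while Tnfsf11, Il6, Igf1, Pthlh and Fgf23 were not listed.

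Of 35 Wnt ligands and secreted regulators 17 were listed, led by the Wnt carrier Wls at 1254 ± 102 per kb and the ligand Wnt10b at 688 ± 232 per kb. Sost, Dkk1 and Sfrp1 were not listed. In the TGF-beta family the highest ligand was Tgfb1 at 2653 ± 1222 per kb, followed by Fstl1 at 1823 ± 701 and the activin antagonist Fst at 1483 ± 62 per kb, and Bmp4 had 731 ± 103 per kb. That order held in libraries 2 and 3, while in library 1 Fst was the highest, at 1553 per kb against 1244 for Tgfb1. Nog and Grem1, BMP antagonists, were not listed.

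Genes of G proteins and the cyclic AMP cascade, through which the PTH receptor acts, were listed for 38 of 48. Their median was 718 per kb, against 363 over all genes, and the genes named next were among the highest of this list. Gnas, the Gs alpha subunit, had 6998 ± 1596 per kb and rank 250, the beta subunits Gnb2 and Gnb1 5511 ± 819.7 and 4614 ± 286, and Prkar1a and Prkaca, the regulatory and catalytic subunits of protein kinase A, 3954 ± 232 and 2623 ± 68.6 per kb. Phosphodiesterases were listed for 9 of 20 genes. Pde6d, a prenyl-binding partner rather than an enzyme that cleaves cyclic nucleotides, had 1199 ± 89.5 per kb. The highest of those that cleave cyclic AMP was Pde8a, at 726 ± 70.9 per kb, against 177 ± 41.6 for Pde7a and 165 ± 16.6 for Pde4a. Pde8a had 794 in vehicle library 1, against 653 and 731 in libraries 2 and 3 per kb, each above the highest Pde7a and Pde4a values. Pde8b was not listed. The FAK gene Ptk2 had 698 ± 23.7 per kb, while the PYK2 gene Ptk2b was near the bottom of the table at 8.64 ± 4.72 per kb. Rhoa and Cdc42, small GTPases that shape the actin skeleton, led that list at 6845 ± 447 and 5337 ± 369 per kb.

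Markers of other lineages were mostly not among the listed genes. Listed were 2 of 18 blood and macrophage genes (Cd68 and Cd14), 2 of 14 epithelial genes (Krt14 and Trp63), 2 of 13 neural genes (Ncam1 and Tubb3), 3 of 12 osteoclast genes, 3 of 14 adipocyte genes, 4 of 14 endothelial genes and 4 of 18 cartilage genes. Ptprc, Epcam, Pecam1, Acp5, Adipoq, Acan and Col2a1, known markers of those lineages, were not listed, but other known markers were. The cartilage genes listed were Ihh, Sox9, Sox6 and Sox5, and the adipocyte genes Car3, Cebpa and Plin4. The endothelial genes listed were Vwf, Egfl7, Erg and Flt1. By the mean of libraries 2 and 3 these cartilage, adipocyte and endothelial genes lay between 8.39 per kb for Flt1 and 396 per kb for Car3. Over all the lineages above, the highest by the mean of the 3 libraries were Ctsk and Ncam1, at 453 ± 96.8 and 352 ± 98.4 per kb. Ctsk encodes a collagen-degrading protease best known from osteoclasts. By the mean of libraries 2 and 3 Ctsk had 402 and Ncam1 406 per kb. Of the 16 skeletal and smooth muscle genes 7 were listed, at a median of 190.1 per kb, between the smooth muscle actin gene Acta2 at 7473 ± 1796 and the desmin gene Des at 19.8 ± 8.83 per kb. The mesenchymal intermediate filament gene Vim had 12414 ± 7362 per kb, and the stromal factor gene Prrx1 1892 ± 975 per kb.

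All 34 cell cycle and mitosis genes were listed, with Pcna, the DNA polymerase clamp, at 9247 ± 1231 per kb and Mcm6, a subunit of the replicative helicase, at 6829 ± 267 per kb. The cell cycle inhibitor genes Cdkn2a and Cdkn1a had 6805 ± 1638 and 3604 ± 683 per kb. Chaperones of the endoplasmic reticulum were high in each library, with Calr, Hspa5 and Hsp90b1 at 22182 ± 2908, 18367 ± 6394 and 18159 ± 3934 per kb. Of the glycolytic genes after Gapdh, the lactate dehydrogenase gene Ldha had 28202 ± 14208 and the pyruvate kinase gene Pkm 23494 ± 10976 per kb.

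Between the vehicle libraries, bone, hypoxia and sterol genes were lower in library 1, and stress and immediate-early genes were among those higher. A gene was counted as lower or higher where its log2 ratio was at or past 1 in the same direction against both libraries 2 and 3. By this rule 929 of 11775 genes (7.89%) were lower in library 1 and 367 (3.12%) higher. By 1 ratio alone, in either direction, 134 (1.14%) were past the same fold between libraries 2 and 3. The same measure gave 1582 between libraries 1 and 2 and 1665 between libraries 1 and 3. The rule sets 1 library against 2 and library 1 was picked for standing apart, so no test is given, and the counts are descriptions. The gene lists share some members.

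Osteoblast differentiation genes were lower in library 1 for 19 of 29 listed genes and higher for 0, with a median log2 ratio of -1.97 against 0.01 over all genes. In the same list the median of library 2 over library 3 was -0.22. Ifitm5, an osteoblast membrane protein gene that is mutated in a brittle bone disease, had 55 in library 1, against 784 and 1070.0 in libraries 2 and 3 normalised estimated counts. Tmem119, a membrane protein gene of differentiating osteoblasts, had 552 in library 1, against 11892 and 13109.7 in libraries 2 and 3, and Panx3 had 645 in library 1, against 7508 and 9063 in libraries 2 and 3 normalised estimated counts. For each of the 3, library 1 held far fewer counts than either other library.

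Among the 5 markers the gap was widest for Pth1r, at 1183 in library 1, against 9782 and 10918 in libraries 2 and 3 normalised estimated counts, or 8.27-fold and 9.23-fold lower in library 1. For Ibsp the folds were 4.44 and 4.91, for Alpl 3.74 and 4.46, for Dmp1 3.37 and 4.26, and for Phex 2.65 and 2.87. Not every bone gene took part. Enpp1, which makes pyrophosphate, and Fam20c, the kinase of secreted phosphoproteins, had log2 ratios to the other libraries that averaged 0.17 and -0.18. The osteocalcin gene Bglap had 373 in library 1, against 706 and 858 in libraries 2 and 3 normalised estimated counts, short of the fold in 1 of the 2 ratios. Bglap and Bglap2 are near-identical copies, so reads may be split between them.

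The osteocyte list followed with 11 of 15 lower, which included the scavenging chemokine receptor gene Ackr3 at 133 in library 1, against 1524 and 1712 in libraries 2 and 3 normalised estimated counts. Osteoblast lineage factors were lower for 18 of 30: Sp7 had 867 in library 1, against 6571 and 7629 in libraries 2 and 3, Dlx3 85.7 against 772 and 1009 and Dlx5 328 against 1743 and 2032 normalised estimated counts. Collagen chains were lower for 11 of 20, at a median log2 ratio of -1.18. Col1a2 had 45348 in library 1, against 173809.7 and 206081 in libraries 2 and 3 normalised estimated counts, and the summed counts of the 20 chains were 144688 in library 1, against 435231 and 506746 in libraries 2 and 3. Over the 6 classes of lists, 45 of 115 matrix genes, 30 of 211 receptor genes, 24 of 153 transcription factor genes, 37 of 190 signalling genes, 50 of 93 cell identity genes (bone and other lineages) and 35 of 162 cell state genes were lower, and 0, 4, 12, 6, 2 and 8 were higher.

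**Figure D3:**
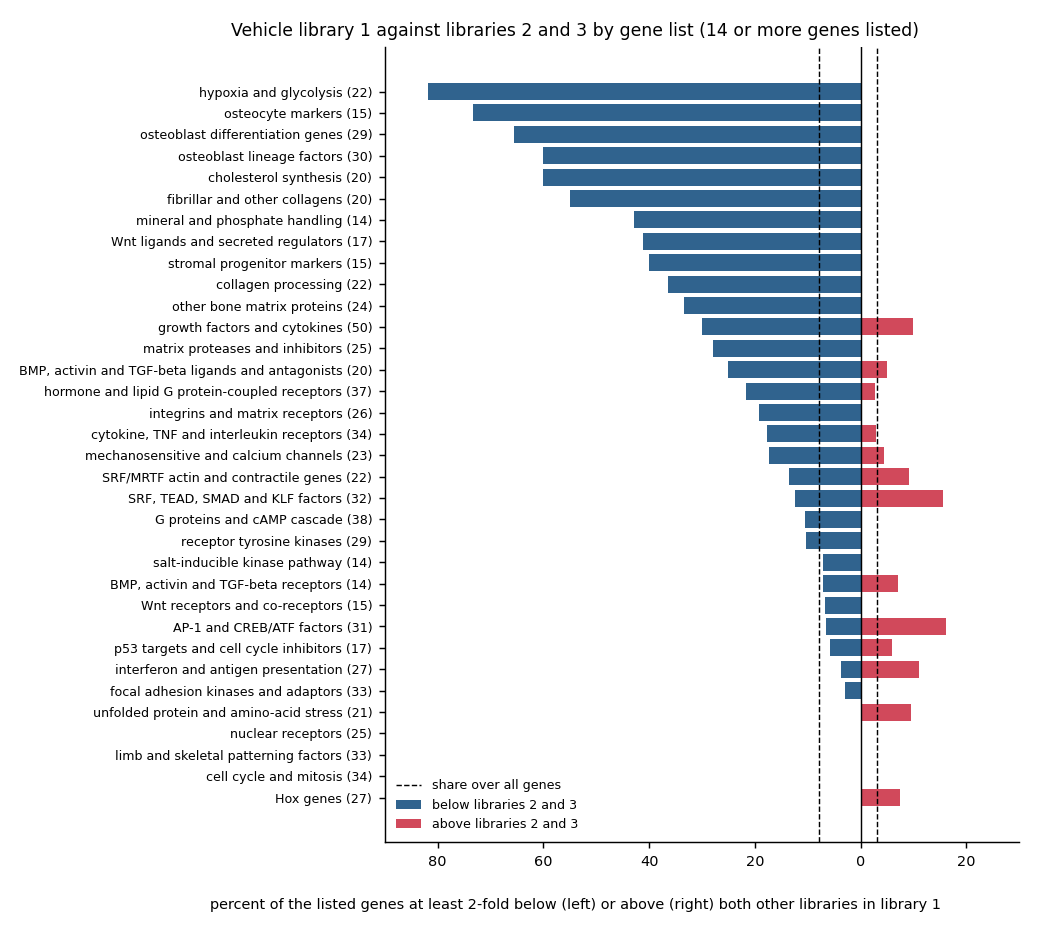
Percent of the listed genes of each list that were at least 2-fold below (blue, to the left) or above (red, to the right) both libraries 2 and 3 in vehicle library 1, for lists with 14 or more genes listed (number in brackets). Dashed lines give the shares over all genes, 7.89% and 3.12%; hypoxia and glycolysis, osteocyte, osteoblast, cholesterol and collagen lists lie far beyond the left line and cell cycle genes show no bar.

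Genes induced by low oxygen and glycolytic enzymes were lower in library 1 for 18 of 22 listed, the highest share of any list, with a median log2 ratio of -1.64. Library 2 over library 3 had a median of -0.01 in that list. The widest gap of all protein-coding genes with a mean of at least 100 was at Ankrd37, a target of the hypoxia-inducible factor HIF, with 25.4 in library 1, against 913 and 963 in libraries 2 and 3 normalised estimated counts. Egln3, the oxygen-sensing prolyl hydroxylase PHD3, had 84.6 in library 1, against 1444 and 1694 in libraries 2 and 3. Glycolytic enzymes were lower as a chain: Tpi1, triose phosphate isomerase, had 6875 in library 1, against 45703 and 44234 in libraries 2 and 3, and Pfkl, a phosphofructokinase, had 1143 in library 1, against 6768 and 5939.8 in libraries 2 and 3 normalised estimated counts. Ndufa4l2, a mitochondrial protein gene that HIF induces, and Slc16a3, the lactate exporter, were also among the 15 lowest, at 150.2 against 3470.4 and 3229 and 32.8 against 512 and 496 normalised estimated counts for library 1 against libraries 2 and 3. The exceptions in the list were Hk1 just short of the fold, Hk2, Pfkfb3 and Vegfa, whose mean log2 ratios were -0.99, -0.19, -0.36 and -0.09.

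Promoters of 3 genes of that list and of Dmp1 are shown because their transcripts were low together in library 1 (RefSeq, GRCm38.p6, 250 bases before to 50 after the gene start, each 5′ to 3′ on its own gene's strand). Capitals mark ACGTG or GCGTG, the core of the hypoxia response element, on either strand in Egln3 (chr12:54203825-54204124, minus strand), Car9 (chr4:43506776-43507075, plus strand) and Pgk1 (chrX:106186850-106187149, plus strand). In Dmp1 (chr5:104202367-104202666, plus strand) they mark TGTGGT, the core bound by RUNX factors, on either strand.
Egln3: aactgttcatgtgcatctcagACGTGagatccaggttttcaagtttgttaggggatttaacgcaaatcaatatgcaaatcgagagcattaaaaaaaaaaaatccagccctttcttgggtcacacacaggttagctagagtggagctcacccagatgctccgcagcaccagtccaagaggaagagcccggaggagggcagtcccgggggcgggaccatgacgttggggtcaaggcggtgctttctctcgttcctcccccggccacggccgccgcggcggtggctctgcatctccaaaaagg
Car9: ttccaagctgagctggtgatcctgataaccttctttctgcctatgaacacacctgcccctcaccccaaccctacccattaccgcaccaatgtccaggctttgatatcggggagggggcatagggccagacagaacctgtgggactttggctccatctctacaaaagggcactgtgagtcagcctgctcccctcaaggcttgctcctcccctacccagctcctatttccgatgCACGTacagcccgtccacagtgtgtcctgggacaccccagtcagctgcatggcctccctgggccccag
Pgk1: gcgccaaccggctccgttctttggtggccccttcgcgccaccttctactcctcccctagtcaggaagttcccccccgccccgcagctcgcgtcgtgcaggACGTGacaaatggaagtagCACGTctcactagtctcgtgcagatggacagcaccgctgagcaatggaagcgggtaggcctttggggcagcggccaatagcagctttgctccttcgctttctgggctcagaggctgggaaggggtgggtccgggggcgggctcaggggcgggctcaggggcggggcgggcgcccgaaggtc
Dmp1: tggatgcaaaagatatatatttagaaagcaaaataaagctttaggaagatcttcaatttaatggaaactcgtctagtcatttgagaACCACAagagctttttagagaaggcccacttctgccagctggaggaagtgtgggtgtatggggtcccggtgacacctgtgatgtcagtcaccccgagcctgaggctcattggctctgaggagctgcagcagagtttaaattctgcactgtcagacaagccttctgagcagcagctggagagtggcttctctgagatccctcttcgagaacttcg
The hypoxia core was in 15 of 21 promoters of the hypoxia and glycolysis list (71.4%) and in 5883 of 9058 promoters of all listed genes that matched a RefSeq entry (64.9%), so its share in the list was near that of all promoters. The RUNX core was in 5 of 19 osteoblast differentiation promoters (26.3%) against 1055 of 9058 (11.6%). It was in 4 of 25 cell cycle (16.0%), 3 of 21 hypoxia and glycolysis (14.3%) and 1 of 13 cholesterol synthesis promoters (7.69%). The hypoxia core was in 5 of 19 osteoblast differentiation promoters (26.3%). These shares rest on few promoters and were not tested. A match is a description of these letters and not a bound site.

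Genes of the cholesterol synthesis list were lower in library 1 for 12 of 20, at a median log2 ratio of -1.14, and all 20 were below both other libraries. Between libraries 2 and 3 this list had a median log2 ratio of 0.03.

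Genes higher in library 1 included targets of the ATF4 stress response. Trib3, a pseudokinase of that response, had 13198 in library 1, against 4798 and 4347 in libraries 2 and 3 and Asns, asparagine synthetase, 17187 against 7240.3 and 6794 normalised estimated counts, although the stress list as a whole had 2 of 21 higher and a median log2 ratio of 0.30. Ppp1r15a, the phosphatase subunit GADD34, had 17893 in library 1, against 4919 and 4397 in libraries 2 and 3, Slc7a11, the cystine importer, 1313 against 321 and 267, and Stc2, a secreted glycoprotein gene, 1951 against 418 and 321 normalised estimated counts. Of the AP-1 and CREB/ATF factors 5 of 31 were higher and 2 lower, where 3.12% of all genes were higher and 7.89% lower. Those higher included Fosb at 507 against 164 and 171, Fos at 787 against 293 and 286 and Atf3 at 2601 against 1061 and 1048. The cytokine gene Lif had 1742 in library 1, against 537 and 431 in libraries 2 and 3 normalised estimated counts, and Acta1, skeletal actin, 3336 against 739.6 and 752. Slc23a3, a membrane transporter gene, had the widest gap upward, at 347 in library 1, against 42.1 and 42.7 in libraries 2 and 3 normalised estimated counts.

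Cell cycle and mitosis genes did not move past the fold in library 1 in either direction, 0 of 34, and their median log2 ratio was 0.00. Their summed counts were 218879.9 in library 1, against 197933 and 197982 in libraries 2 and 3. Nuclear receptors (0 of 25) and limb patterning factors (0 of 33) likewise had none past the fold, and Hox genes had 2 of 27 higher, Hoxb9 and Hoxb13. Markers of other lineages differed in library 1 as well. The summed counts of the 9 listed tendon and fibroblast genes were 23174 in library 1, against 66825 and 66113 in libraries 2 and 3, with 6 lower and 1 higher. Those of the 15 listed stromal progenitor genes were 19319.7 in library 1, against 38731 and 40333 in libraries 2 and 3, with 6 lower, and those of the 7 listed muscle genes were 26576 in library 1, against 18511 and 16889 in libraries 2 and 3, with 1 lower and 1 higher. The cartilage, adipocyte, endothelial, blood, osteoclast, neural and epithelial lists, with 2 to 4 genes listed in each, had 1 gene lower each (2 in the adipocyte list) and 0 higher, at median log2 ratios between -2.06 and -0.55. The part of other cell types in the counts for bone genes was not tested. Transcript length moved with the ratio: the 2896 shortest genes had a median log2 ratio of -0.17 and 10.0% lower, the 2895 longest 0.14 and 6.53% lower. The part of length in the gene list counts was not tested.

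**Figure D4:**
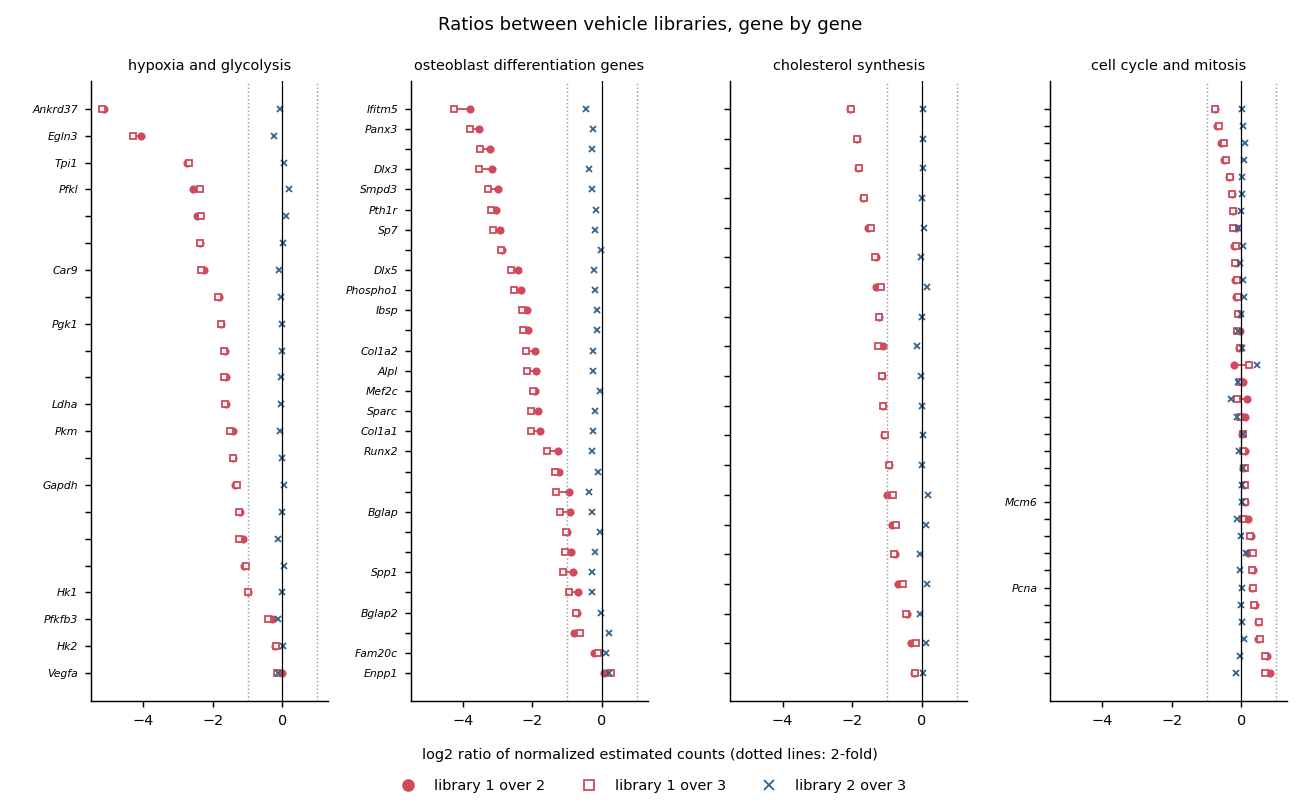
Log2 ratio of normalised estimated counts for each listed gene of 4 lists, 1 row per gene, with names for those described in the text: library 1 over library 2 (filled circles), library 1 over library 3 (open squares) and library 2 over library 3 (crosses), with dotted lines at 2-fold. The crosses stay near 0 in all 4 lists, while library 1 is far to the left in the hypoxia and glycolysis, osteoblast and cholesterol lists and near 0 in the cell cycle list.

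The PTH libraries of the same table were set beside the vehicle libraries at these genes. All 3 PTH libraries were above library 1 for 870 of the 929 genes lower in it (93.6%), against 41.5% of all genes, but choosing genes for a low value in library 1 favours this direction and nothing is read from it. All 3 were below libraries 2 and 3 for 391 of the 929 (42.1%), against 28.4% of all genes. The same choice takes genes with high values in libraries 2 and 3, which favours this direction too, and nothing is read from it. In the hypoxia and glycolysis list 22 of 22 genes had all 3 PTH libraries above library 1, and 1 of 22 had them all below libraries 2 and 3. That gene was Ankrd37, with 726, 622 and 625 normalised estimated counts in the PTH libraries. In the osteoblast differentiation list 26 of 29 genes had all 3 PTH libraries above library 1, and 14 of 29 had all 3 below libraries 2 and 3. The lists were chosen with earlier results of these data known, so these counts are descriptions.

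Because the vehicle libraries are the control of each comparison, the library that stood apart enters them all, and the 3 comparisons share it. With PTH against vehicle, 337 of 11775 genes were higher (2.86%) and 119 lower (1.01%) at an adjusted p below 0.05 (limma) and a change of 1 or more on the log2 scale. Of these calls 73.9% were higher, and 62.6% when all libraries were brought to 1 common total, where the median over all genes was -0.12. Without vehicle library 1 the counts were 375 (3.18%) and 239 (2.03%). Osteoblast differentiation genes held 1 higher and 0 lower of 29, against 1 higher and 9 lower without vehicle library 1. For the osteoblast lineage factors the counts were 4 higher and 1 lower of 30, against 4 and 8 without it.

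Pth1r had 5743, 4729 and 4893 in PTH libraries, against 1183, 9782 and 10918 in vehicle libraries 1, 2 and 3 (normalised estimated counts). The PTH libraries lay between library 1 and the other vehicle libraries, so the groups overlap. The log2 fold change was 0.02 ± 0.79 (± SE, adjusted p = 0.99). Leaving out vehicle library 1 gave -1.02 (adjusted p = 8.9e-05), in alternatives whose adjusted p ranged between 8.9e-05 and 0.99. Ibsp had 24876, 21596 and 21132 in PTH libraries, against 6232, 27700.0 and 30578 in vehicle libraries 1, 2 and 3, with the same order. Its log2 fold change was 0.37 ± 0.57 (adjusted p = 0.73), and -0.37 without vehicle library 1 (adjusted p = 0.0082, range over alternatives 0.0082 to 0.87), short of the fold. Dmp1 had 199, 118 and 85.1 in PTH libraries, against 117, 396 and 500.3 in vehicle libraries 1, 2 and 3, with 2 PTH libraries above vehicle library 1 and all 3 below the other vehicle libraries.

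Its log2 fold change with PTH was -1.17 ± 0.58 (adjusted p = 0.27), and -1.81 without vehicle library 1 (adjusted p = 0.0046, range over alternatives 0.0046 to 0.56). Phex and Alpl did not pass either way, with log2 fold changes of -0.24 ± 0.47 and 0.70 ± 0.53. None of the 30 highest nuclear genes was called with PTH (0 higher and 0 lower), and their median log2 fold change was 0.24. Some baseline genes passed whether or not vehicle library 1 was kept. Vegfa had 23513, 24794 and 23941 in PTH libraries, against 8379.8, 8512 and 9330.1 in vehicle libraries 1, 2 and 3, with no overlap, and rose by 1.46 ± 0.09 on the log2 scale (adjusted p = 0.00034, 1.43 without vehicle library 1). For Fzd5, the highest Wnt receptor by the mean of the vehicle libraries, the log2 fold change was -1.90 ± 0.13 (adjusted p = 0.00049). For Fgfr1 it was 2.22 ± 0.21 (adjusted p = 0.0017). The values of Fzd5 and Fgfr1 without vehicle library 1 are not given here.

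Replicates 1 and 3 of PF431396 hold the same value for each of 11484 genes and count here as 1 library, so n was 2. With PF431396 against vehicle 1257 of 11484 genes were higher (10.9%) and 1748 lower (15.2%), and when all libraries were brought to 1 common total 344 were higher and 3470 lower, at a median over all genes of -0.56. The share of higher calls was thus 41.8% as deposited and 9.02% with that scaling. Without vehicle library 1 there were 1198 higher (10.4%) and 1719 lower (15%). Of the 30 highest genes of the baseline 28 were called higher and 0 lower, at a median log2 fold change of 1.41, in a direction that is relative to the deposited scaling. In this table the 13 mitochondrial genes took 11.81% and 12.998% of the counts in PF431396 libraries 1 and 2. They took 3.89%, 5.19% and 4.67% in vehicle libraries 1, 2 and 3. The 96 ribosomal protein genes took 10.79% and 10.94%, against 5.22%, 6.83% and 6.52%. The 100 highest genes took 33.56% and 34.49%, against 15.91%, 20.44% and 19.88%. The part of these shares in the calls was not tested. Cholesterol synthesis genes fell for 8 of 20, and for 16 without vehicle library 1, the library in which they were low. Osteoblast differentiation genes had 5 higher and 2 lower of 30, against 8 and 7 without it.

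Alpl had 34304 and 32639.8 in PF431396 libraries, against 3718, 14197 and 16909.5 in vehicle libraries 1, 2 and 3 normalised estimated counts, with both PF431396 libraries above all vehicle libraries. Its log2 fold change of 1.80 ± 0.62 did not pass (adjusted p = 0.062), and 1.11 without vehicle library 1 did (adjusted p = 0.0012, range over alternatives 0.0012 to 0.23). It also passed without vehicle library 3, at 2.20 (adjusted p = 0.026), but not with all libraries on 1 common total, at 1.26 (adjusted p = 0.13). Pth1r had 3502 and 4374 in PF431396 libraries, against 979.8, 8265 and 9233 in vehicle libraries 1, 2 and 3, with the PF431396 libraries again between library 1 and the others. Its log2 fold change was -0.11 ± 0.94 (adjusted p = 0.94) with all vehicle libraries and -1.16 (adjusted p = 0.0024, range over alternatives 0.0024 to 0.98) without library 1. The stress factor genes Atf4 and Ddit3, among the highest transcription factors of the baseline, had log2 fold changes of -2.47 ± 0.21 and -3.29 ± 0.29 (adjusted p = 0.0025 and 0.0025).

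In the table of the KO the targeted gene Pde8a had 2074, 2438 and 2037 in PDE8A KO libraries, against 3099.6, 2579 and 2889.6 in vehicle libraries 1, 2 and 3 normalised estimated counts. The KO libraries were all below the vehicle libraries, by a log2 fold change of -0.39 ± 0.14 that did not pass the threshold (adjusted p = 0.068). The deleted part is not given in the sources used here, so these counts do not check the label. Against vehicle 733 of 11592 genes were higher (6.32%) and 595 lower (5.13%), and without vehicle library 1 the counts were 699 (6.03%) and 706 (6.09%). Osteoblast differentiation genes held 1 higher and 15 lower of 28, against 1 and 20 without vehicle library 1.

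All 5 markers were lower in the KO, also in comparison with library 1. Ibsp had 184, 308 and 158 in PDE8A KO libraries, against 6353, 28596 and 31584 in vehicle libraries 1, 2 and 3, so the groups did not overlap, and its log2 fold change was -6.42 ± 0.59 (adjusted p = 0.00051). Pth1r had 344, 370.1 and 322 in PDE8A KO libraries, against 1204, 10083 and 11261 in vehicle libraries 1, 2 and 3 normalised estimated counts and a log2 fold change of -3.90 ± 0.76 (adjusted p = 0.0096). For Phex, Alpl and Dmp1 the log2 fold changes were -3.86 ± 0.41, -2.95 ± 0.52 and -2.84 ± 0.59 (adjusted p = 0.00087, 0.0065 and 0.012). Without vehicle library 1 they were -7.17 for Ibsp, -4.95 for Pth1r, -4.35 for Phex, -3.63 for Alpl and -3.48 for Dmp1. Dmp1 missed the threshold without KO library 2 (-2.85, adjusted p = 0.0503) or without KO library 3 (-2.50, adjusted p = 0.0507).

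**Figure D5:**
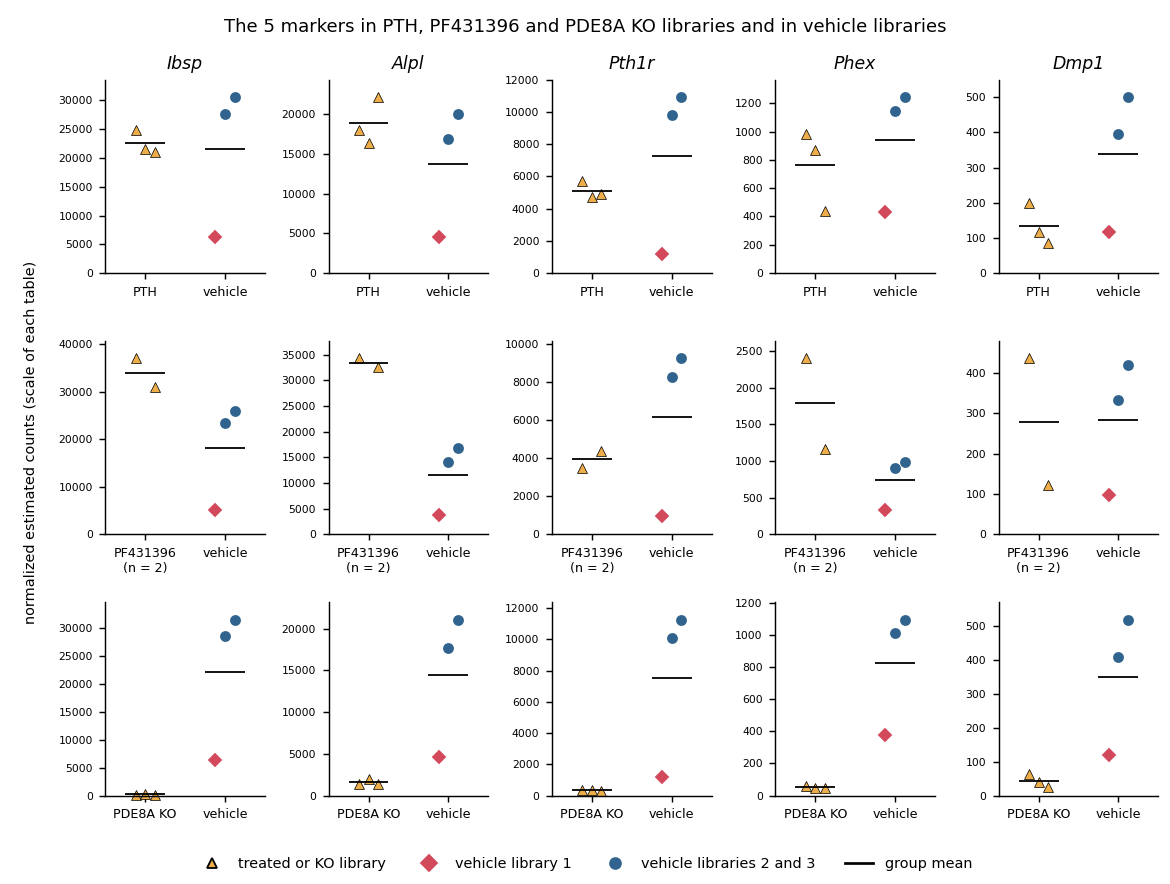
Normalised estimated counts of the 5 markers in PTH (top), PF431396 (middle, identical libraries drawn once) and PDE8A KO (bottom) libraries, each left of the vehicle libraries of the same table; lines are group means and each table has its own scaling. Vehicle library 1 (red diamonds) is the lowest vehicle library in all 15 panels, and the KO libraries lie below all vehicle libraries in each bottom panel.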

How the data were processed

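RNA sequencing of total RNA was used in 12 samples in 4 groups of 3, by the labels. The submitters' processing notes name FastQC 0.11.5 for read quality, Salmon with GRCm38 for quantification and DESeq2 for the authors' own comparisons. The authors deposited 3 tables, each with 1 group beside the vehicle libraries. The deposited signal is a normalised estimated count: in each library 100% of the values were whole multiples of 1 step, within a tolerance of 0.02, and the step differed between tables (for vehicle library 2 it was 0.957 in the PTH, 0.800 in the PF431396 and 1.000 in the KO table). The tables also differ gene by gene, which a step cannot give: the ratio of vehicle library 2 between tables had a log2 SD over genes of 0.12 for PF431396 over PTH and 0.07 for KO over PTH. The cause was not tested, and each comparison stays within 1 table. The deposited log2 fold changes, p-values and -log10 columns of the authors were not used here. Rows that name no gene (8 for PTH, 6 for PF431396 and 8 for KO, with at most 0.0249% of a library) were left out.

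The level per kb is the deposited value divided by the longest principal transcript (GENCODE M21, GRCm38), which matched 11581 of 11768 symbols (98.4%), in part through RefSeq synonyms. Groups were compared with limma 3.58.1 (R 4.3.3, trend and robust variance, statmod 1.5.0) on log2(value + 1), 2 groups in each fit, with Benjamini-Hochberg adjustment over all genes of the table. Fold changes on that scale understate the change of low genes. The procedure was tested on simulated data in which all libraries had the same spread and none stood apart, unlike the vehicle libraries here. Promoters are RefSeq's. Other steps used Python 3.11.15 with pandas 2.3.3 and numpy 2.4.6.

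The 48 gene lists (1198 genes) and the members were chosen with earlier results of these data known. Named genes are the 5 markers, the 30 highest nuclear protein-coding genes, up to 6 highest genes of each list with defining genes that are not listed, the 15 lowest and 15 highest protein-coding genes in library 1 with a mean of at least 100, up to 4 genes per list with the widest gap in library 1, and in the comparisons the markers, the genes of the 30 that passed and up to 3 per list. Runx2, Sp7, Smpd3, Ptk2, Ptk2b, Bglap, Enpp1, Fam20c, Hk1, Hk2, Pfkfb3, Atf4 and Ddit3 with PF431396 were named beside these after their values were seen. Some genes that this rule names are not reported here. Genes with a pattern like that of Ibsp were not looked up. Alternatives were other pseudocounts, filters, scalings, transcript lengths, deposited tables, a replicate block and leaving out each library. The list counts without vehicle library 1 were added after seeing the data.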

Additional observations from a re-analysis of the deposited data

How the results depend on the processing

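Of the 75 alternative values for the counts, 62 stayed within 1.5 times the reported count. The 30 highest genes shared 15 with the 30 found by the median transcript length, and 20 with merged exon lengths. Leaving out 1 library at a time moved the PTH calls to between 185 and 375 higher and between 34 and 239 lower, with vehicle library 1 giving both upper ends, and without vehicle library 2 65 were lower. The PTH counts without PTH library 1, 2 or 3 were 211, 210 and 185 higher and 41, 35 and 34 lower. Without PF431396 library 1 or 2 higher calls were 743 and 570, within a range of 570 to 1198, and on 1 common total PF431396 gave 344 higher and 3470 lower. The counts for library 1 against libraries 2 and 3 kept within 1.5 times under each alternative run.

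Reversed directions were at markers whose change did not pass. With PTH, leaving out 1 library gave log2 fold changes between -0.37 and 0.77 for Ibsp, between -1.02 and 0.58 for Pth1r and between -0.72 and 0.12 for Phex. The lowest value of all 3 came without vehicle library 1, and Pth1r was at -0.094 on 1 common total. With PF431396, the range was -1.16 to 0.46 for Pth1r and -0.96 to 0.87 for Dmp1, and with the replicate block they were at 0.46 and 0.36. In the KO, Dmp1 lost its call without KO library 2 (-2.85) or 3 (-2.50). The cause of these moves was not tested.

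The replicate numbers were not used as pairs in the main fits. Deviations of same-numbered PTH and vehicle libraries correlated across genes at -0.03, -0.05 and 0.03, and those of KO and vehicle at 0.10, 0.06 and 0.07. Libraries with different numbers gave -0.08 to 0.07 for PTH and -0.10 to 0.04 for KO. The same-numbered values were thus highest in the KO comparison but weak, and whether its libraries are paired was not settled. With the replicate number as a block, Alpl with PF431396 passed (2.20, adjusted p = 0.0088), PTH had 315 higher and 88 lower, PF431396 1245 and 1520, and KO 711 and 594. Counts recovered from the deposited values were not tested with a count model, and trimmed-mean scaling factors were not run. Genes near 11 estimated counts are the least precise. Of the 2944 genes lowest in level 14.6% were lower and 5.37% higher in library 1, against 4.65% and 2.28% of the 2944 highest. The part of precision in these shares was not tested.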

Other observations

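Libraries 2 and 3 were close to each other but not identical. Of 10437 protein-coding genes with a mean of at least 100 normalised estimated counts, 36 were past 2-fold between them, 21 higher and 15 lower in library 2, and none of the 36 belongs to any of the 48 lists. Klhdc1, a kelch-domain protein gene, had 945 in library 2 and 172 in library 3, and 311 in library 1. The scaffold gene Magi2 had 221 in library 2 and 46.9 in library 3. Tet1, a DNA demethylase gene, had 176 in library 2 and 497 in library 3. These genes were chosen after their values were seen.

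A few interferon-stimulated genes were on the higher side in library 1, 3 of the 27 listed, against 1 lower. Of all genes 3.12% were higher and 7.89% lower. The antiviral enzyme gene Rsad2 had 239 against 45 and 70.4 normalised estimated counts for library 1 against libraries 2 and 3, and Mx2 had 153 against 63.2 and 36.3. Both are low values, as the median gene had 1106 in library 1. Most of the list did not follow: B2m and H2-D1 had mean log2 ratios of -0.06 and -0.13. Among tendon and fibroblast genes, 6 of 9 were lower in library 1, including the intermediate filament gene Vim at 8585 against 36898 and 36188 and the calcium-binding protein gene S100a4 at 310.0 against 1550.1 and 1837. Egr1, an immediate-early factor in the same list, went the other way at 5381 against 1640.0 and 1578 normalised estimated counts.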
